A study of Mus musculus with 8 samples.

Results

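Glycolysis splits glucose to pyruvate in the cytosol, and 36 genes of that route and of the paths that feed or drain it were followed in newborn mouse cortex that lacks estrogen-related receptor gamma (ERRγ). They were chosen as a list of gene symbols, covering glycolytic enzymes, their regulators, glucose and lactate carriers, the pentose phosphate pathway and glycogen enzymes. Every probe that the platform annotation gives one of these symbols was taken, which gave 46 of the 25697 probes of the array and 29 of the 16561 genes with a named probe. Of these 29 genes, 23 were tested, because at least 1 of their probes was above background on at least 4 of the 8 arrays. The 6 others were Pfkfb3, Pgk1, Pgam2, Slc16a1, Slc16a7 and Gys1. No probe was listed under the symbols Hk2, Gpi1, Pfkfb1, Eno1, Ldhb, G6pdx and Pgd, and these 7 genes were not analysed here.

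The samples were cerebral cortices taken at postnatal day 0, 2 of them from ERRγ-/- mice (called ERRγ-null) and 2 from wild-type mice. Each of the 4 was labelled a biological replicate and was hybridised to a first array and a b array, a technical repeat. The comparison asked which transcripts change when the receptor is missing, at an age at which the submitters hold the cortex to be mainly of neuronal lineage. The labels name neither strain nor sex, nor the deleted part of the gene, nor whether a sample was 1 animal or a pool. The p-values therefore rest on the spread among these 4 samples, which may be partly technical. In the limma fit the spread of each gene is drawn toward a value common to all genes (14 prior degrees of freedom).

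Hexokinase traps glucose as its phosphate, phosphofructokinase sets the pace of the route, and pyruvate kinase closes it. Pyruvate then enters mitochondria or is turned to lactate by lactate dehydrogenase, and monocarboxylate transporters move lactate across membranes. ERRγ, encoded by Esrrg, is an orphan nuclear receptor known to switch on genes of mitochondrial respiration. Most steps of glycolysis have several isozymes, encoded by separate genes with different use in neurons, astrocytes, muscle and liver.

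The mean intensity of an array before normalization ran from 547 to 639 on the ERRγ-null arrays and from 390 to 565 on the wild-type arrays, and between 11022 and 12013 probes were above background. Wild-type sample 1 had the lowest mean, 390, on its first array. The only Esrrg probe was above background on 0 of 8 arrays (detection p from 0.357 to 0.761), so the targeted gene does not check the genotype labels. Of 8 neuronal markers, 6 were detected and tested, with mean log2 signals of 10.85 and 10.76 in the ERRγ-null samples, against 10.69 and 10.82 in the wild-type samples. The number of samples, 2 per genotype, limits the precision of all values.

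None of the 23 tested genes passed the test between the genotypes after adjustment over all 8098 genes tested (limma, 0 of 23, smallest adjusted p = 0.480). Over all genes 1 was called, which is 0.0123%. At an unadjusted p under 0.05 there were 2 of the 23, or 8.70%, where all genes gave 7.22%, so that the share was near the background. Both were higher in ERRγ-null cortex (3.61% of all genes were higher at this p and 3.62% lower), namely Pfkp, which encodes the platelet-type phosphofructokinase, and Pkm, which encodes the muscle-type pyruvate kinase. In bulk tissue such a difference cannot be told apart from a different share of the cells that use the gene.

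The log2 differences (ERRγ-null minus wild type) of the 23 genes had a median of 0.05, against 0.00 for all genes, and ran from -0.21 for Slc16a3 to 0.49 for Pfkp. Of the 23, 15 were above 0 (65.2%), against 50.6% of all genes. When arrays were scaled to a common median in place of quantile normalization, all genes moved up by a median of 0.17 and 22 of the 23 were above 0. Relative to that shift 16 were, and 22 of the 23 kept their sign, Pfkfb4 being the exception. The 2 samples of one genotype lay beyond both of the other for 8 of the 23 genes (34.8%), against 35.1% of all genes tested. In 5 of the 8 the ERRγ-null samples were the higher ones (Pfkp, Pkm, Slc2a8, Tkt and Pygl, 17.7% of all genes), and in 3 the lower ones (Hk1, Pfkfb2 and Slc16a3, 17.3% of all genes).

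**Figure D1:**
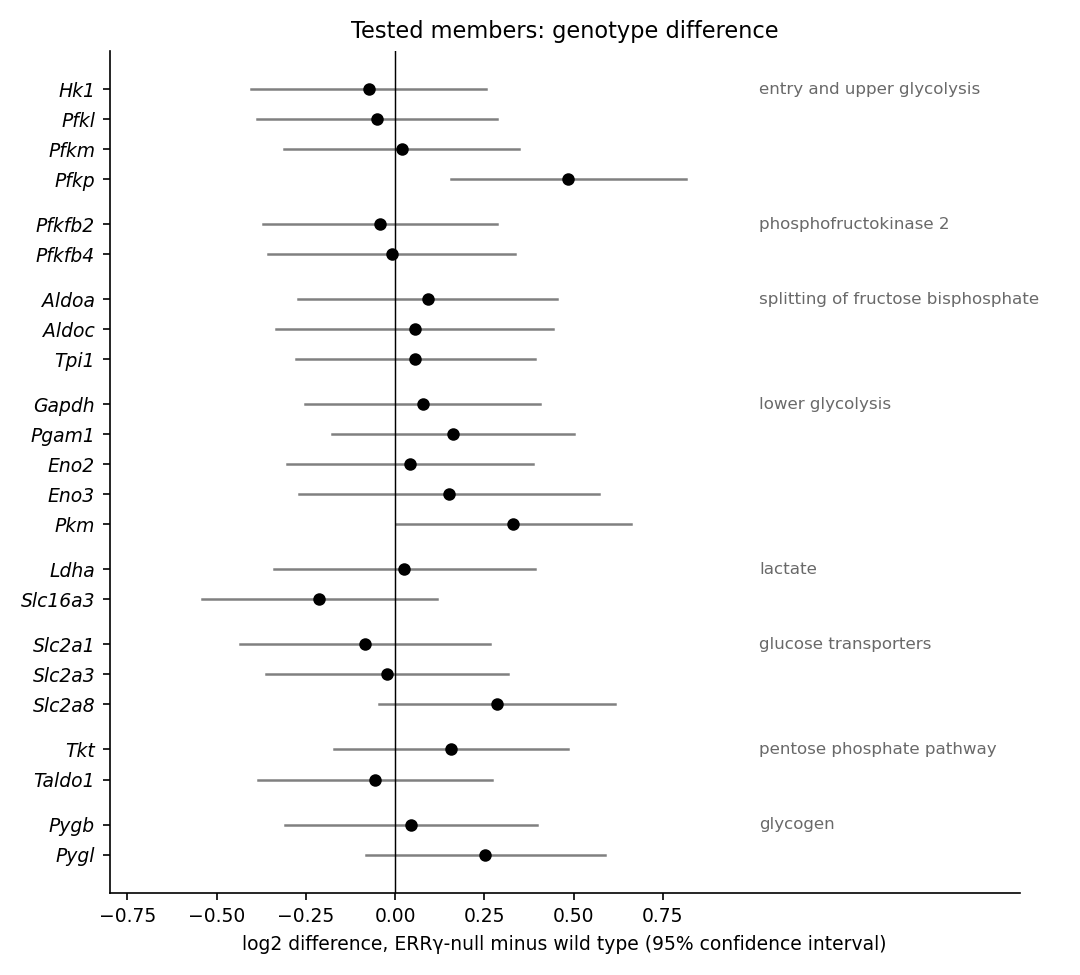
Log2 difference between ERRγ-null and wild-type cortex for the 23 tested genes, grouped by role, on the x axis (points) with the 95% confidence interval of the limma fit (lines); n = 2 samples per genotype. The intervals of Pfkp and Pkm lie above 0 and those of the other 21 include 0.

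The promoters of the genes with the largest differences and of Ldha are shown because ERRγ binds the letters AAGGTCA and because ACGTG is the core read by hypoxia-inducible factors, known activators of glycolytic genes. The RefSeq table (GRCm38.p6) lists windows of 300 bases, with 250 before and 50 after each start, and 34 of the 36 genes matched it by symbol. Shown are the 250 bases before the first start listed for Pfkp (chr13:6648772-6649021, minus strand), Pkm (chr9:59656326-59656575, plus strand) and Ldha (chr7:46845554-46845803, plus strand). Capitals mark matches to either motif on either strand.
Pfkp: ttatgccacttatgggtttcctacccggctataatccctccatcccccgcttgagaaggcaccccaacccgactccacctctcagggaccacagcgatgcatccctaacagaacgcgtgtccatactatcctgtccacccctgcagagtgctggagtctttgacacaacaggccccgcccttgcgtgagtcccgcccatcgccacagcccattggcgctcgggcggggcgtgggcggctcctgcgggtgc
Pkm: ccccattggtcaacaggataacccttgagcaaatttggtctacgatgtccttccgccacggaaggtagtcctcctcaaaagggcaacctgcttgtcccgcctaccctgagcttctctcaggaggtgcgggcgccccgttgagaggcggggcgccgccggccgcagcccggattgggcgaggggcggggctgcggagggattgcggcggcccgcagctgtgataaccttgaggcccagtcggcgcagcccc
Ldha: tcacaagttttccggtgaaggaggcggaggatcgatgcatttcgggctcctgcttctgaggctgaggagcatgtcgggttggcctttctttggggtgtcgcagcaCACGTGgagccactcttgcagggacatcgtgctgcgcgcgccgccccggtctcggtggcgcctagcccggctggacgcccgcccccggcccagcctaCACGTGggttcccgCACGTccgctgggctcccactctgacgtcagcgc
Neither motif occurs in the printed stretches of Pfkp and Pkm. The Ldha stretch holds 5 ACGTG matches, of which 4 are the overlapping strands of 2 CACGTG palindromes. A second window of Pkm holds 2 ACGTG matches.

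Among the tested genes with a listed promoter, 1 of 22 (4.55%) had AAGGTCA on either strand, against 3.78% of the 6611 tested genes that matched. That gene was Tpi1, with 1 match in its window of 300 bases. ACGTG was present in at least 1 window of 13 of the 22 genes (59.1%), against 30.1% of the 6611. By window the shares were 48.5% of 33 windows for the tested genes of the list, 25.5% of 8603 windows for all tested genes and 19.6% of all 32851 windows in the table. These matches are letters in a window and were not tested as binding sites.

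Hexokinase and phosphofructokinase form the controlled entry to the route. Hk1, the hexokinase of brain, had a log2 signal of 8.71 and 8.65 in the ERRγ-null samples, against 8.80 and 8.72 in the wild-type samples. Both ERRγ-null samples were lower, by a mean of 0.07, less than the standard error of the fit (difference -0.07, SE 0.15, limma adjusted p = 0.978). Pfkl, for the liver-type phosphofructokinase, had 9.91 and 10.12 in ERRγ-null cortex, against 10.10 and 10.03 in wild-type cortex. The samples overlapped, with a difference of -0.05 (SE 0.16, limma adjusted p = 0.989). Pfkm, the muscle-type gene, had 10.92 and 11.05 in ERRγ-null cortex, against 10.97 and 10.96 in wild-type cortex. Here too the samples overlapped (difference 0.02, SE 0.16, limma adjusted p = 0.992).

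Pfkp stood apart from both other phosphofructokinase genes in its values. Its log2 signal was 6.98 and 7.09 in the ERRγ-null samples, against 6.55 and 6.56 in the wild-type samples. Both ERRγ-null samples were higher, and the gap between the genotypes exceeded the gap within either. The mean was 7.04 ± 0.08 in ERRγ-null and 6.55 ± 0.01 in wild-type cortex (SD, n = 2 each), a 1.40-fold difference with a 95% confidence interval from 1.11 to 1.76. It did not pass the test (log2 difference 0.49, SE 0.16, unadjusted p = 0.00647, limma adjusted p = 0.480). The size depended on the background step, with a log2 difference of 0.25 without background correction and 0.28 from the authors' normalized intensities. By array the ERRγ-null values were 6.72, 7.24, 7.17 and 7.02 and the wild-type values 6.35, 6.74, 6.36 and 6.75, so the arrays of the genotypes overlapped. The median gap between the 2 arrays of a sample was 0.40 for Pfkp, nearly as large as the genotype difference, against 0.18 for all genes. The deposited intensities of this probe were 217.2, 295.9, 253.1 and 240.4 on the ERRγ-null arrays, against 151.8, 192.2, 178.5 and 216.4 on the wild-type arrays.

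A second Pfkp probe did not show the difference. It had 6.53 and 6.14 in ERRγ-null cortex, against 6.40 and 6.45 in wild-type cortex, and was above background on 7 arrays. Its difference was -0.09 (SE 0.17). With the mean of both kept probes the Pfkp difference was 0.20 (SE 0.14, limma adjusted p = 0.844). The third Pfkp probe was above background on 0 arrays. All 3 are annotated to the same transcript record, and which of them reads Pfkp best was not tested.

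**Figure D2:**
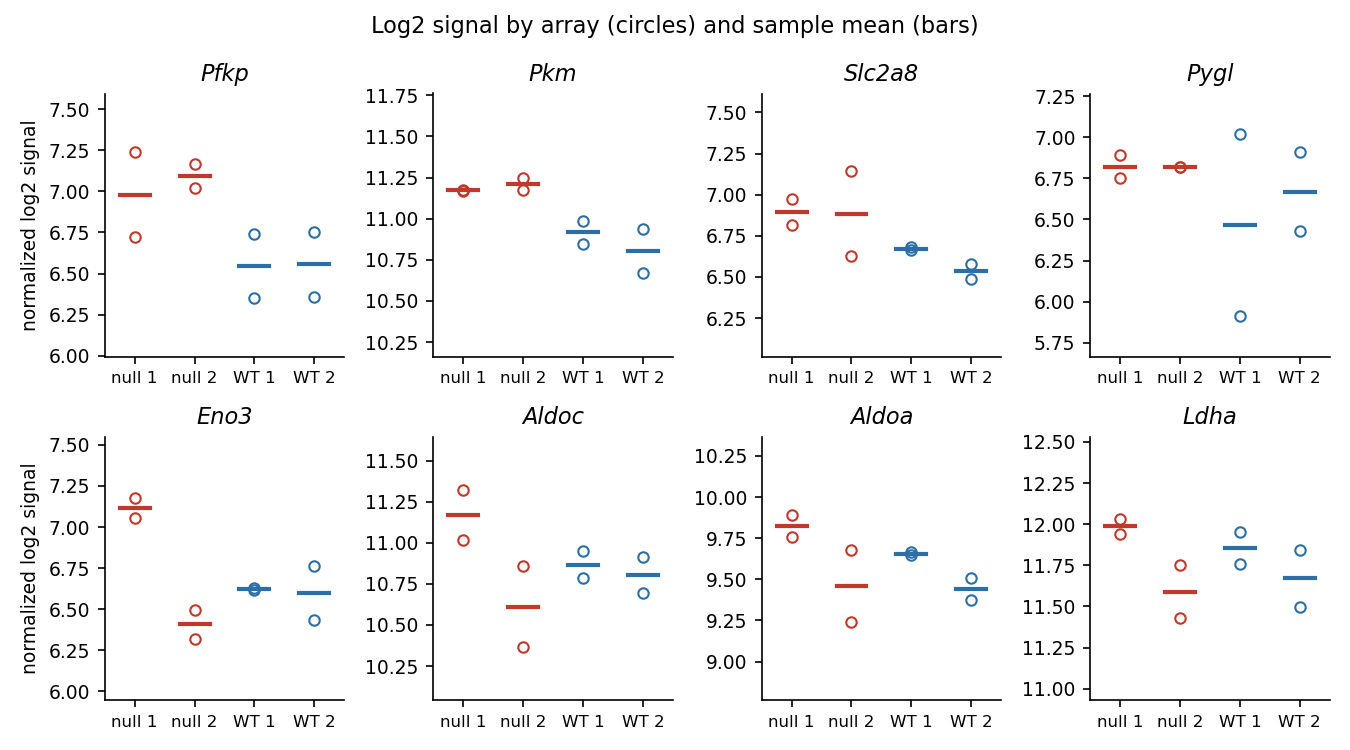
Normalized log2 signal (y axis, each panel spanning 1.6 log2 units) of 8 genes in the 2 ERRγ-null and 2 wild-type samples; circles are the 2 arrays of a sample and bars their mean. Pkm has all 4 ERRγ-null arrays above all 4 wild-type arrays, whereas Eno3, Aldoc, Aldoa and Ldha differ more between the ERRγ-null samples than between the genotypes.

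Other genes with several kept probes also gave unequal values. The 3 Pfkm probes differed between the genotypes by 0.02, 0.18 and -0.37. The last of these had 7.79 and 7.84 in ERRγ-null cortex, against 8.26 and 8.12 in wild-type cortex, with both ERRγ-null samples lower. It did not pass the test over the 10786 probes (SE 0.16, limma adjusted p = 0.663). For Tpi1, which encodes triose phosphate isomerase, the 3 probes gave 0.06, 0.09 and -0.27. The probes of Pfkl gave -0.05 and 0.17 and those of Pfkfb2 -0.04 and -0.19, and the 3 of Tkt gave 0.16, 0.22 and 0.06. Probes of opposite sign were thus found for 4 of the 6 genes, Pfkl, Pfkm, Pfkp and Tpi1. The like share over all genes with several kept probes was not computed, so the count describes these genes alone.

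**Figure D3:**
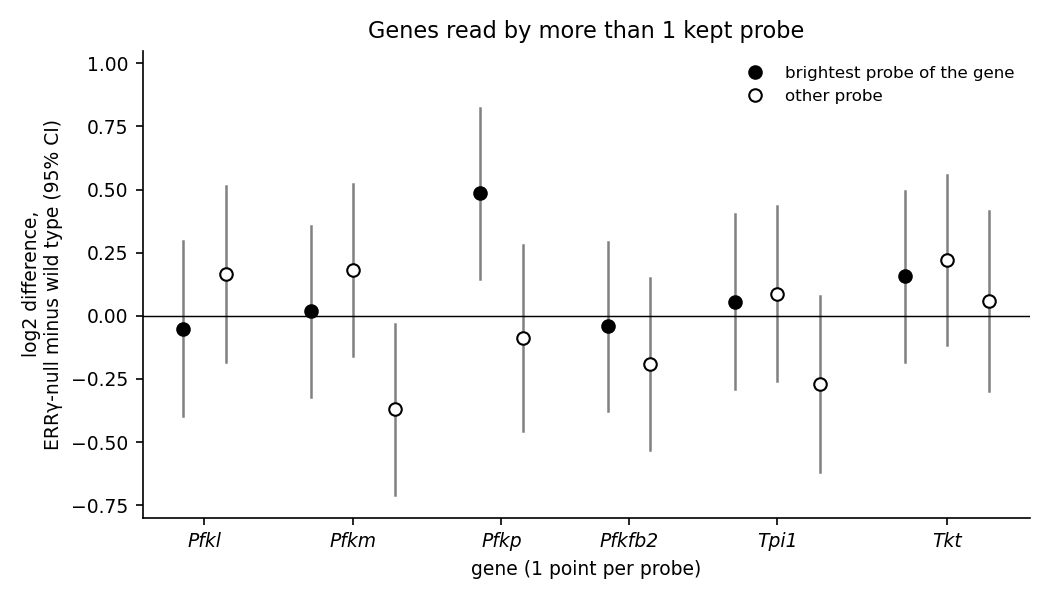
Log2 difference between ERRγ-null and wild-type cortex (y axis, points) with 95% confidence intervals (lines) for each kept probe of the 6 genes read by more than 1. Filled points are the brightest probe of a gene, which represents it elsewhere; the 2 Pfkp probes give 0.49 and -0.09.

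Bifunctional enzymes of the Pfkfb family set the level of the sugar phosphate that activates phosphofructokinase. Pfkfb2 had 9.79 and 9.85 in ERRγ-null cortex, against 9.86 and 9.86 in wild-type cortex (difference -0.04). The gap was less than the standard error of 0.15. Pfkfb4 had 9.71 and 9.82 in ERRγ-null cortex, against 9.92 and 9.63 in wild-type cortex (difference -0.01), and the samples overlapped. The Pfkfb3 probe was above background on 0 arrays.

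Aldolase splits the doubly phosphorylated sugar and triose phosphate isomerase converts one product to the other. Aldoa, the muscle and general form, had 9.82 and 9.46 in ERRγ-null cortex, against 9.66 and 9.44 in wild-type cortex (difference 0.09, SE 0.17, limma adjusted p = 0.976). Aldoc, the brain form used as an astrocyte marker, had 11.17 and 10.61 in ERRγ-null cortex, against 10.87 and 10.80 in wild-type cortex (difference 0.06, SE 0.18, limma adjusted p = 0.989). For both aldolases ERRγ-null sample 1 was the highest of the 4, and for Aldoc ERRγ-null sample 2 was the lowest. Tpi1 had 11.43 and 11.49 in ERRγ-null cortex, against 11.50 and 11.30 in wild-type cortex (difference 0.06).

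All 5 tested genes of lower glycolysis had differences above 0 (50.6% of all genes did), with a median of 0.15, but none passed the test. Among them Pgam1, Eno2 and Eno3 changed sign under other settings, given below. Gapdh, for glyceraldehyde phosphate dehydrogenase, had 12.50 and 12.39 in ERRγ-null cortex, against 12.40 and 12.33 in wild-type cortex (difference 0.08, SE 0.16, limma adjusted p = 0.976). Pgam1, a phosphoglycerate mutase gene, had 8.66 and 8.49 in ERRγ-null cortex, against 8.33 and 8.50 in wild-type cortex (difference 0.16, SE 0.16, limma adjusted p = 0.922). For both genes the samples of the genotypes overlapped. The low Pgam1 value of wild-type sample 1 came from its first array (8.01, against 8.66 on its b array), and without that array the difference was 0.0009.

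Enolase removes water to give phosphoenolpyruvate. Eno2, the neuronal enolase gene, had 10.40 and 10.68 in ERRγ-null cortex, against 10.55 and 10.45 in wild-type cortex (difference 0.04, SE 0.16, limma adjusted p = 0.990). Eno3, the muscle form, had 7.11 and 6.41 in ERRγ-null cortex, against 6.62 and 6.60 in wild-type cortex (difference 0.15, SE 0.20, limma adjusted p = 0.947). The ERRγ-null samples lay on either side of the wild-type samples for both genes, in opposite order. Leaving out ERRγ-null sample 1 gave an Eno3 difference of -0.20, and leaving out sample 2 gave 0.50.

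Pkm, the last enzyme gene of the route, separated the genotypes on single arrays too. Its log2 signal was 11.17 and 11.21 in the ERRγ-null samples, against 10.92 and 10.81 in the wild-type samples. All 4 ERRγ-null arrays (11.18, 11.17, 11.25 and 11.17) were above all 4 wild-type arrays (10.99, 10.85, 10.94 and 10.67). Arrays of a sample are technical repeats and add no replicates, and the share of all genes with such a separation was not counted. The log2 difference was 0.25 on the first arrays alone and 0.41 on the b arrays alone. The mean was 11.19 ± 0.03 in ERRγ-null and 10.86 ± 0.08 in wild-type cortex (SD, n = 2 each), a 1.26-fold difference with a 95% confidence interval from 1.00 to 1.58. The gene did not pass after adjustment (log2 difference 0.33, SE 0.16, unadjusted p = 0.0486, limma adjusted p = 0.687). Only 1 probe reads Pkm here, and how it divides the splice forms of the gene was not tested.

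Lactate dehydrogenase and the lactate carriers gave no difference past the test. Ldha, for the subunit that favours lactate formation, had 11.99 and 11.59 in ERRγ-null cortex, against 11.86 and 11.67 in wild-type cortex (difference 0.03, SE 0.17, limma adjusted p = 0.992). ERRγ-null sample 1 was the highest and ERRγ-null sample 2 the lowest of the 4. Slc16a3, which encodes the lactate exporter MCT4, had 6.10 and 6.02 in ERRγ-null cortex, against 6.22 and 6.32 in wild-type cortex. Both ERRγ-null samples were lower (difference -0.21, SE 0.16, limma adjusted p = 0.850), with -0.61 on the first arrays alone and 0.18 on the b arrays alone. The probe was dim, above background on 3 of 4 ERRγ-null and 4 of 4 wild-type arrays, and the other 2 Slc16a3 probes were above background on 0 arrays. Slc16a1 and Slc16a7, for MCT1 and MCT2, were above background on 0 arrays, with detection p from 0.429 to 0.883 and from 0.425 to 0.856.

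Glucose enters endothelium and glia through GLUT1, encoded by Slc2a1, and neurons through GLUT3, encoded by Slc2a3. Slc2a1 had 9.42 and 9.37 in ERRγ-null cortex, against 9.65 and 9.31 in wild-type cortex (difference -0.09, SE 0.17, limma adjusted p = 0.976). Slc2a3 had 9.94 and 9.97 in ERRγ-null cortex, against 10.10 and 9.85 in wild-type cortex (difference -0.02, SE 0.16, limma adjusted p = 0.992). For both transporters the ERRγ-null samples fell between the wild-type samples. Slc2a8, for the intracellular transporter GLUT8, had 6.89 and 6.88 in ERRγ-null cortex, against 6.67 and 6.53 in wild-type cortex. The ERRγ-null samples were both higher, by 1.22-fold (log2 difference 0.29, SE 0.16, limma adjusted p = 0.759). The difference was 0.47 on the first arrays and 0.10 on the b arrays, and the other 2 Slc2a8 probes were above background on 2 arrays and on 0.

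In the pentose phosphate pathway, Tkt for transketolase had 11.03 and 11.07 in ERRγ-null cortex, against 10.85 and 10.94 in wild-type cortex. The ERRγ-null samples were both higher (difference 0.16, SE 0.15, limma adjusted p = 0.923). Taldo1, for transaldolase, had 11.22 and 11.19 in ERRγ-null cortex, against 11.32 and 11.21 in wild-type cortex, with a difference of -0.06. Of the glycogen enzymes, Pygb, the brain phosphorylase gene, had 9.78 and 9.61 in ERRγ-null cortex, against 9.81 and 9.49 in wild-type cortex (difference 0.05). Pygl, the liver form, had 6.82 and 6.82 in ERRγ-null cortex, against 6.47 and 6.67 in wild-type cortex (difference 0.25, SE 0.16, limma adjusted p = 0.803). The lower Pygl value of wild-type sample 1 rested on its first array (5.91, against 7.02 on its b array), and without that array the difference was -0.02.

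Genes whose probes stayed near background were not tested between the genotypes. Pgk1, for phosphoglycerate kinase, had 1 probe, with detection p from 0.0501 to 0.415, and Pgam2, the muscle mutase gene, 1 probe with detection p from 0.233 to 0.801. Gys1, for glycogen synthase, had 2 probes, above background on 2 arrays, both of them ERRγ-null, and on 0. The first had 5.70 and 5.92 in ERRγ-null cortex, against 5.47 and 5.50 in wild-type cortex (difference 0.32). The second gave -0.07, and neither was kept for the test. How well these probes read their transcripts was not tested.

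The samples of one genotype often differed by more than the genotypes did. For 14 of the 23 genes the gap between the ERRγ-null samples exceeded the genotype difference in size (60.9%, against 60.0% of all genes), and for 13 the gap between the wild-type samples did (56.5%, against 58.5%). The largest gaps between ERRγ-null samples (sample 1 minus sample 2) were 0.71 for Eno3, 0.56 for Aldoc, 0.40 for Ldha and 0.36 for Aldoa, all with sample 1 higher. Between the wild-type samples they were 0.34 for Slc2a1, 0.32 for Pygb, 0.29 for Pfkfb4 and 0.25 for Slc2a3, again with sample 1 higher. In all, ERRγ-null sample 1 was above ERRγ-null sample 2 for 12 of the 23 genes (52.2%, against 48% of all genes). The median gap there was 0.0082. Wild-type sample 1 was above wild-type sample 2 for 17 of the 23 genes (73.9%, against 51.8% of all genes), with a median gap of 0.08.

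**Figure D4:**
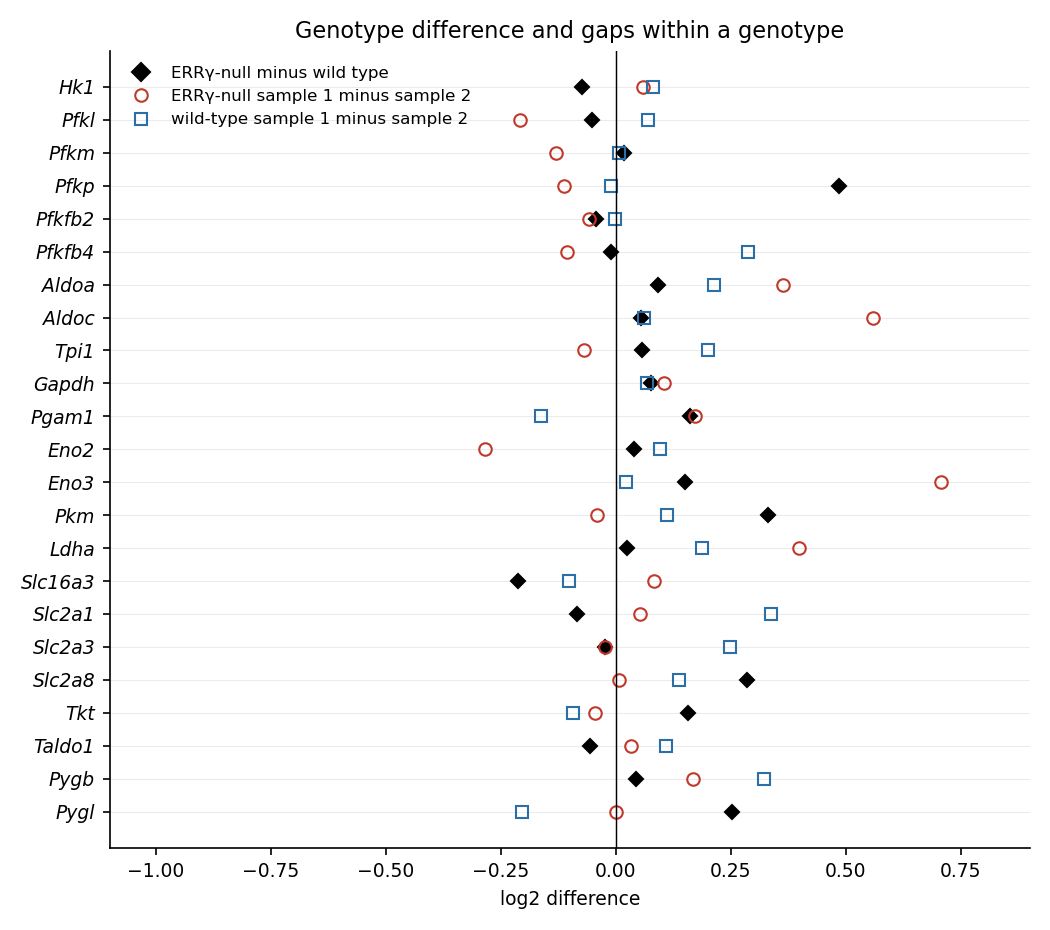
Log2 differences (x axis) for the 23 tested genes between the genotypes (diamonds), between the 2 ERRγ-null samples (circles) and between the 2 wild-type samples (squares). For Eno3 the ERRγ-null samples differ by 0.71 and the genotypes by 0.15; for Pfkp these values are -0.11 and 0.49.

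Markers of other tissues and hypoxia-response genes outside glycolysis were set beside these gaps. The 3 tested genes of the meninges and fibroblast list (of 7) had mean log2 signals of 8.32 and 9.24 in the ERRγ-null samples, against 8.56 and 8.47 in the wild-type samples. Among them Dcn had 5.40 and 7.12 in ERRγ-null cortex, against 5.87 and 5.64 in wild-type cortex, so that ERRγ-null sample 2 was the high one. Skeletal muscle markers (3 of 9 tested) averaged 6.57 and 6.67 in the ERRγ-null samples, against 6.80 and 6.64 in the wild-type samples. Of these, Myl1 was higher in ERRγ-null sample 1 than in sample 2 (6.33 against 6.16). Acta1 (7.34 against 7.59) and Actn3 (6.04 against 6.25) were lower. Astrocyte markers (7 of 9 tested) averaged 7.90 and 7.91 in ERRγ-null cortex, against 7.92 and 7.77 in wild-type cortex, and endothelial markers (7 of 9) 7.98 and 8.13, against 8.05 and 8.03. Microglial markers (4 of 7) averaged 6.70 and 6.81 in ERRγ-null cortex, against 6.78 and 6.54 in wild-type cortex, and erythroid markers (3 of 8) 9.19 and 9.02, against 9.15 and 8.78. Of 5 choroid plexus markers only Sostdc1 was tested, with 6.74 and 7.18 in ERRγ-null cortex, against 6.17 and 6.58 in wild-type cortex (difference 0.59, limma adjusted p = 0.480). Of 16 tested hypoxia-response genes, 5 were higher in ERRγ-null sample 1 than in sample 2 (31.2%, against 48% of all genes). In wild-type cortex 6 were higher in sample 1 than in sample 2 (37.5%, against 51.8%). The median gaps were -0.04 and -0.07. Between the genotypes 8 were higher in ERRγ-null cortex and 8 lower. Both ERRγ-null samples lay above both wild-type samples for 3 and below them for 0 (18.8% not overlapping, against 35.1% of all genes). The part of these cell types in the differences was not tested.

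Isozymes were compared by the log2 ratio of 2 genes within a sample, which shows unequal change and not which gene is more abundant. Of 9 pairs with both genes tested, 3 had ratios that did not overlap between the genotypes, a share near the 35.1% of single genes whose samples did not overlap. Pfkp relative to Pfkl was 0.58 and 0.49 above the wild-type mean in the ERRγ-null samples, and within 0.04 of it in the wild-type samples (difference 0.54). Pfkp relative to Pfkm was 0.48 and 0.46 above it in the ERRγ-null samples, and within 0.01 of it in the wild-type samples (difference 0.47). These 2 ratios share the first Pfkp probe, so its limits hold for both, and with the mean of kept probes they were 0.14 and 0.26. Slc2a8 relative to Slc2a1 was 0.35 and 0.39 above the wild-type mean in ERRγ-null cortex, against -0.10 and 0.10 in wild-type cortex (difference 0.37), but with the b arrays alone the difference was 0.0052.

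The exact two-sided permutation test gave p = 0.333 for each of these 3, which is the smallest it can give with 2 samples against 2, and 0.858 after Benjamini-Hochberg adjustment over the 9 pairs. The other 6 pairs overlapped between the genotypes. Their differences were -0.07 for Pfkl relative to Pfkm, 0.04 for Aldoa relative to Aldoc, -0.06 for Slc2a1 relative to Slc2a3 and 0.21 for Pygl relative to Pygb. They were 0.11 for Eno3 relative to Eno2 and 0.03 for Pfkfb4 relative to Pfkfb2, pairs added after the data were seen because the partners listed for them could not be tested. The ratio of Eno3 to Eno2 lay 0.61 above the wild-type mean in ERRγ-null sample 1 and at -0.38 from it in ERRγ-null sample 2.

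**Figure D5:**
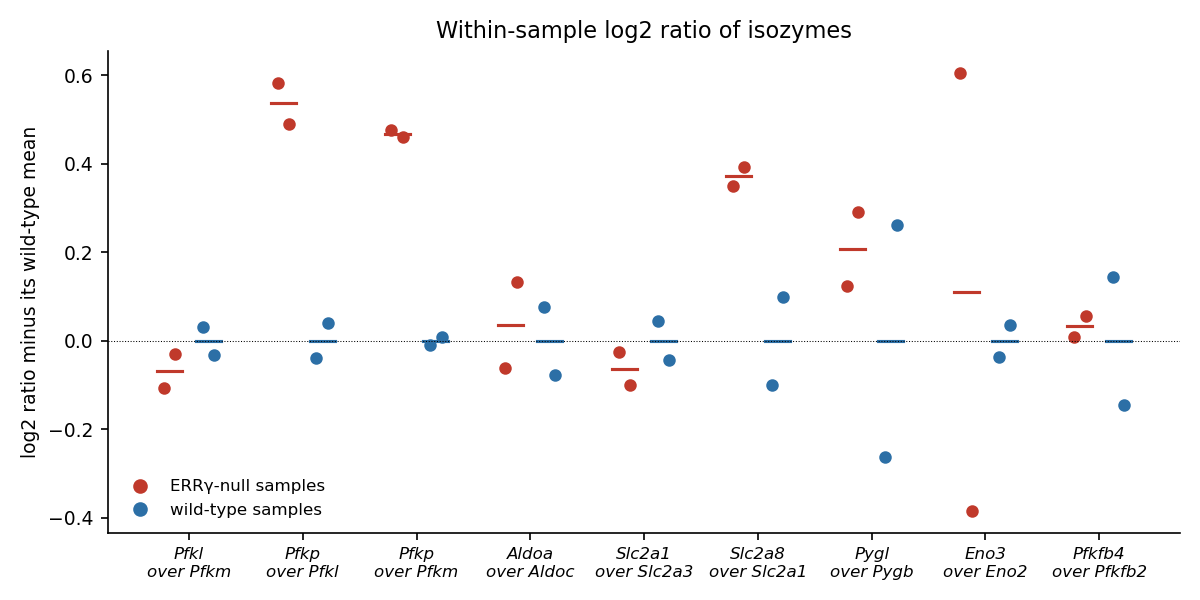
Within-sample log2 ratio of 2 isozyme genes minus its mean in wild-type cortex (y axis) for 9 pairs (x axis), with the 2 ERRγ-null samples left and the 2 wild-type samples right in each pair; points are samples and short lines genotype means. The ERRγ-null samples lie above both wild-type samples for Pfkp over Pfkl, Pfkp over Pfkm and Slc2a8 over Slc2a1.

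Related genes of glucose, glycogen, lactate and pyruvate handling, a list of 55, gave no gene past the test either. Of 23 tested, 0 passed after adjustment (limma) and 1 had an unadjusted p under 0.05 (4.35%, against 7.22% of all genes). Their median difference was 0.01. Both ERRγ-null samples lay above both wild-type samples for 4 and below them for 0. That is 17.4% not overlapping, against 35.1% of all genes and 34.8% of the 23 genes above. Slc2a6, for the lysosomal hexose transporter GLUT6, had 7.65 and 7.67 in ERRγ-null cortex, against 7.37 and 7.17 in wild-type cortex. Both ERRγ-null samples were higher (difference 0.39, SE 0.16, unadjusted p = 0.0253, limma adjusted p = 0.600). Emb, for embigin, a partner protein of lactate carriers, had 6.19 and 6.86 in ERRγ-null cortex, against 6.996 and 6.71 in wild-type cortex (difference -0.33). Pdk3, a kinase gene that restrains pyruvate dehydrogenase, had 7.03 and 7.17 in ERRγ-null cortex, against 6.91 and 6.87 in wild-type cortex (difference 0.21). Neither Emb nor Pdk3 passed the test (limma adjusted p = 0.798 and 0.860).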

How the data were processed

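The authors deposited 1 mean bead intensity per probe and array with a detection p-value, per the file headers, and a second table of intensities brought to a common distribution, whose method stays unknown (column medians 142.5 to 142.7, rank correlation 1 with the first table). Per the submitters' processing notes, GenomeStudio was used. In R 4.3.3 with limma 3.58.1, neqc corrected the background through the detection p-values (offset 16), quantile normalized and took log2. Probes with a detection p under 0.05 on at least 4 of 8 arrays were kept (11568, of which 10786 had a symbol). The brightest kept probe stood for a gene. Arrays of a sample were averaged, so n is 2 per genotype, and lmFit and eBayes compared the genotypes (14 prior degrees of freedom), with Benjamini-Hochberg adjustment over 8098 genes and a threshold of 0.05. Single probes were fitted together over the 10786. The model fit and the adjustment were run on simulated normalized values with known changes. These values used the gene means, with normal errors whose variances were drawn from the prior of the same fit. They follow the assumptions of the model, so the run could not test those assumptions. The steps before the fit and the isozyme ratios were not covered. The members and lists were chosen with earlier results of these data known.

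All genes of the list were named. Full values were given for the 12 with the smallest p and for the hexokinase, phosphofructokinase, aldolase, enolase, lactate dehydrogenase and glucose transporter isozymes, and of the related list for the 3 with the smallest p. Alternatives covered background, normalization, the filter, the technical arrays, the replicate number as a block, left-out samples, the variance prior and the probe per gene. After the data were seen, a fit leaving out the dimmest array (wild-type sample 1, first) was added. No coordinates are given for probes, because the files name no genome build.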

Additional observations from a re-analysis of the deposited data

How the results depend on the processing

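No gene of the list passed the limma threshold under any of the 19 alternatives, and at an unadjusted p under 0.05 there were from 1 to 4 of them. The count was 4 without a filter on dim probes and 4 with the first arrays alone, and 1 with the b arrays alone, the mean of kept probes or the replicate block, and from 1 to 2 with a sample left out. Pfkp and Pkm kept their sign in all 18 refits, from 0.20 to 0.62 and from 0.25 to 0.51, as did Slc2a8 from 0.10 to 0.47. Refits that altered only the filter, the block or the variance estimate left these 3 differences unchanged, so no sign could turn there. Where every probe was fitted alone, the probe with the smallest p stood for its gene. For Pfkp this left out the second kept probe, whose difference was -0.09. The median difference of the list was 0.23 under median scaling, where all genes moved by 0.17, and ran from -0.0158 to 0.13 with a sample left out, the lowest value without wild-type sample 2.

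Over all genes the count of 1 called by limma was 20 under median scaling and 12 with the replicate block, and 0 without a filter, with probes above background on all 8 arrays, with the first or b arrays alone, with a robust prior, with the mean of probes and with every probe fitted alone (each with 6.36% to 7.22% of genes at an unadjusted p under 0.05). It ran from 0 to 22 with a sample left out (0 on leaving out an ERRγ-null sample, and 22 and 17 on leaving out the first and the other wild-type sample). No shared litter or batch is given for equal replicate numbers. Deviations of equally numbered samples had a correlation of 0.01 over genes. A pairing that touched few genes would leave this value near 0, so whether the numbers pair samples is unknown.

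Each change of sign found for the 18 genes with full values (17 or 18 refits each) and the 9 ratios (12 or 13 settings each) is given here. The other 5 genes were followed one by one under median scaling alone. Median scaling turned Hk1 (0.13), Pfkl (0.14), Slc2a1 (0.0981) and Slc2a3 (0.16), and, among the other 5 genes, Pfkfb2 (0.14), Pfkfb4 (0.18) and Taldo1 (0.11). The first arrays alone turned Pfkm (-0.13) and Aldoa (-0.0138), and the ratios Pfkl to Pfkm (0.0578), Aldoa to Aldoc (-0.10) and Eno3 to Eno2 (-0.0208). The b arrays alone turned Pgam1 (-0.0338), Eno2 (-0.0847), Ldha (-0.12), Slc16a3 (0.18), Slc2a1 (0.0957), Slc2a3 (0.12) and Pygl (-0.18), and the ratios Pygl to Pygb (-0.11) and Pfkfb4 to Pfkfb2 (-0.06). The mean of probes turned Pfkl (0.0576), Pfkm (-0.0573) and their ratio (0.12), and the probe with the smallest p turned Pfkl (0.17) and Pfkm (-0.37). Leaving out the dimmest array turned Eno2 (-0.0253), Pygl (-0.0243), Slc2a1 to Slc2a3 (0.0022) and Pygl to Pygb (-0.035).

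Leaving out ERRγ-null sample 1 turned Pfkl, Aldoa, Aldoc, Eno3, Ldha and Eno3 to Eno2, and leaving out ERRγ-null sample 2 turned Pfkm, Eno2 and Aldoa to Aldoc. Leaving out wild-type sample 1 turned Slc2a1, Slc2a3 and Pygl to Pygb, and leaving out wild-type sample 2 turned Aldoa, Eno2, Ldha, Aldoa to Aldoc and Pfkfb4 to Pfkfb2. With a sample left out the values ran from -0.15 to 0.0528 for Pfkl, -0.0466 to 0.0827 for Pfkm, -0.0909 to 0.27 for Aldoa, -0.22 to 0.33 for Aldoc, -0.10 to 0.18 for Eno2, -0.20 to 0.50 for Eno3, -0.17 to 0.22 for Ldha, -0.25 to 0.0836 for Slc2a1 and -0.15 to 0.10 for Slc2a3. Those of the ratios ran from -0.0615 to 0.13 for Aldoa to Aldoc, -0.0555 to 0.47 for Pygl to Pygb, -0.38 to 0.61 for Eno3 to Eno2 and -0.11 to 0.18 for Pfkfb4 to Pfkfb2. The cause of these turns was not tested. Signal over background limits the dim probes, among them those of Pfkp, Slc2a8, Pygl and Slc16a3.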
